A study of Homo sapiens with 148 samples.

Results

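The first step of an in vitro pancreatic differentiation, from human embryonic stem cells (hESCs) to definitive endoderm (DE), is described here from RNA-seq. The members are the 7579 genes at 10 TPM or more in both stages, the 2343 that reached 10 TPM in DE alone and the 583 that reached it in hESCs alone, which together are 10505 of the 49085 gene names in the table. TPM is a read count divided by transcript length, after which the values of each library are brought to 1 common sum. A gene was placed by the log2 ratio of DE to hESCs after 1 TPM was added to each value, and was counted as higher or lower from 2-fold on that scale.

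The study followed wild-type H9 cells, an established hESC line, through DE, a gut tube-like stage (PGT), progenitors of the pancreas (PP) and β-like cells in organoids (SC-β), to ask how chromatin loops change as cells adopt new fates. Of its 148 samples 12 were RNA-seq libraries, 2 per stage, and 4 of these belong to hESCs and DE. The deposited table holds 1 mean per gene and stage, so every value below is the authors' mean, with no error and no test, and the reads behind it are unknown. A stage named PH, which the study's text does not define, appears in 1 plot only.

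The hESCs were undifferentiated cells grown in StemPro medium on Geltrex. The DE cells were collected on day 4 of a suspension culture that began as spheres in mTeSR1 with the ROCK inhibitor Y27632. They received Activin A, a ligand that signals through the same receptors as Nodal, with CHIR99021, a GSK3 inhibitor that activates WNT signalling, on day 1, and Activin A alone on day 2. Y27632 was also present on day 1, and from day 4 the medium held KGF, an FGF family growth factor. Both groups came from 1 cell line and carried no transgene or sort, so the DE value is an average over all cells of the spheres. Whether the hESC RNA came from flat or sphere cultures is not given in the sources used here, and stage, medium and culture form therefore cannot be told apart. In such bulk samples, fewer cells of a type and less RNA per cell cannot be told apart either.

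Definitive endoderm is the germ layer that gives rise to the gut, liver, lung and pancreas. In the embryo it forms in the primitive streak, where strong Nodal signalling together with WNT induces EOMES and then the endoderm factors SOX17, FOXA2 and GATA6, while the pluripotency network is shut down. Activin A stands in for Nodal in culture. Cells leaving the streak gain the receptors CXCR4 and KIT and secrete inhibitors of Nodal, WNT and BMP, as the anterior endoderm of the embryo does.

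Between hESCs and DE, 2469 genes were at least 2-fold higher in DE and 669 were at least 2-fold lower, which is 23.5% and 6.37% of the 10505. By the limit itself, the 2343 genes at 10 TPM in DE alone could not be lower. Likewise the 583 at 10 TPM in hESCs alone could not be higher. At 4-fold these counts were 670 (6.38%) and 244 (2.32%), and 7367 genes (70.1%) stayed under 2-fold. The balance toward DE depended on the scale. The median log2 ratio over all 10505 genes was 0.39, and RNAs such as 7SL, 7SK and the small nuclear and nucleolar RNAs, counted together with mitochondrially encoded genes, took 45.0% of the TPM total in hESCs against 40.8% in DE. With these left out and the totals computed again, the median was still 0.30. When DE was rescaled so that the median ratio over 15889 genes at 1 TPM or more in both stages was 1, which lowers log2 ratios by 0.44, the counts over the same genes became 1369 higher (13%) and 1274 lower (12.1%), so that 51.8% of the genes past 2-fold were higher in DE in place of 78.7%. Values below are unscaled unless called rescaled, and are to be read against the median of 0.39. Counts of a list are to be read beside the 23.5% higher and 6.37% lower of all genes.

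**Figure D1:**
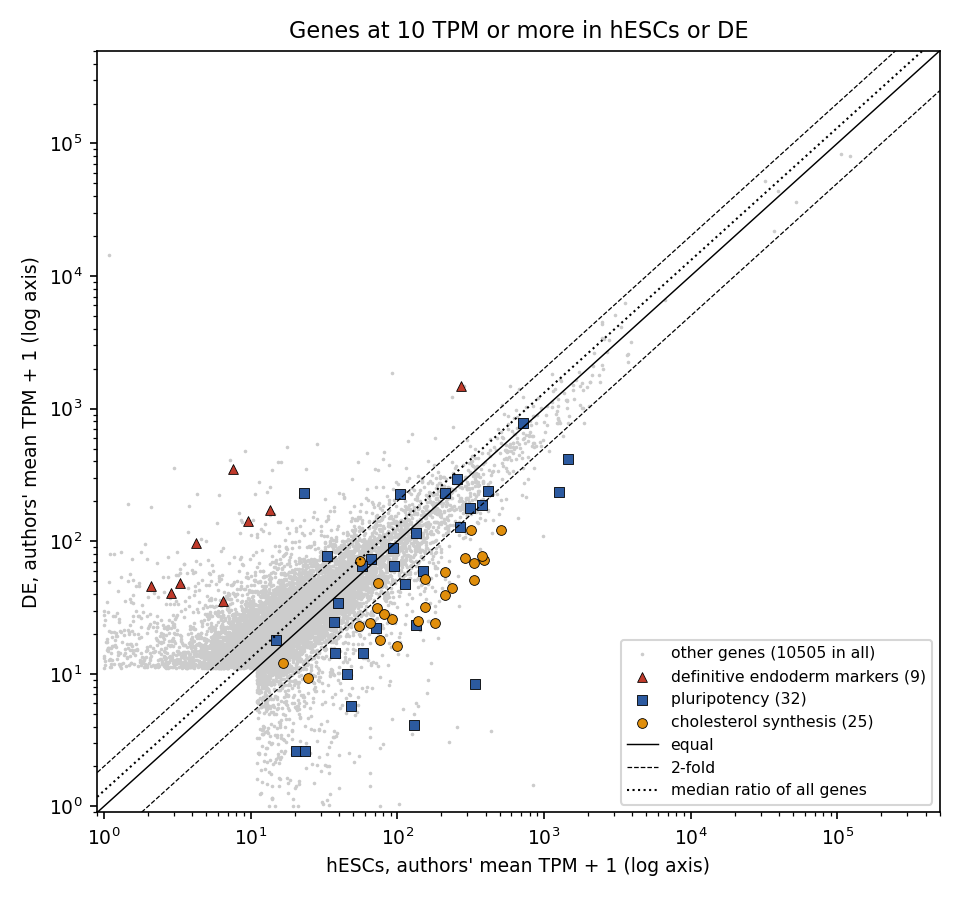
Each point is 1 of the 10505 genes, placed by the authors' mean TPM plus 1 in hESCs (horizontal, log axis) and in DE (vertical, log axis), with the solid line at equal levels, dashed lines at 2-fold and the dotted line at the median log2 ratio of 0.39. All 9 definitive endoderm markers (triangles) lie above the upper 2-fold line, 22 of 25 cholesterol genes (circles) lie below the lower one, and the 32 pluripotency genes (squares) lie on both sides.

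The label of the stage was checked against markers of definitive endoderm. All 9 markers were at least 2-fold higher in DE, with log2 ratios from 2.45 to 5.54 and a median of 3.88 against 0.39 for all genes. All but CER1 and EOMES were below 10 TPM in hESCs and passed the limit through DE, which favours a higher value. SOX17, the defining transcription factor of the layer, was at 3.22 TPM in hESCs against 96.1 TPM in DE (log2 ratio 4.52). GATA6 (ENSG00000141448.11, chromosome 18, 22169589 to 22202528, forward strand), a zinc finger factor needed for human endoderm, was at 2.30 TPM in hESCs against 47.5 TPM in DE (log2 ratio 3.88). CER1 (ENSG00000147869.5, chromosome 9, 14719724 to 14722733, reverse strand), a secreted inhibitor of Nodal, BMP and WNT, was already abundant in hESCs, at 269.7 TPM, and reached 1483 TPM in DE (log2 ratio 2.45). Of the 9, CER1 thus had both the highest level and the smallest ratio. The chemokine receptor CXCR4, a surface marker by which endoderm is commonly sorted, had the largest ratio, from 6.53 to 350.3 TPM (log2 ratio 5.54), and the receptor tyrosine kinase KIT, its usual partner in such sorts, went from 8.63 to 141 TPM (log2 ratio 3.89). The coordinates come from GENCODE version 44 (GRCh38, which the study names hg38).

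Genes of other lineages were mostly low in both stages, apart from a few members of each list. Of 14 mesoderm markers only KDR reached 10 TPM, and it was lower in DE (20.2 TPM in hESCs, 6.996 TPM in DE, log2 ratio -1.40). The mesoderm factors MESP1, HAND1, HAND2 and FOXF1 were at or below 0.174 TPM in both stages, while ISL1, BMP4 and FOXC1 came closest to the limit, at 9.36, 8.30 and 6.27 TPM in DE against 0.0206, 5.68 and 0.131 TPM in hESCs. None of the 12 trophoblast and amnion markers and none of the 9 pancreas markers reached 10 TPM, and PDX1, PTF1A, NEUROG3, INS and GCG were listed at 0 in both stages. Of 12 neuroectoderm markers NES and FABP7 were lower in DE (log2 ratios -1.12 and -1.61) and DLK1 was higher, at 18.7 TPM, whereas PAX6 was at 4.40 TPM and SOX1 at 0.0103 TPM. Among 13 genes of yolk sac and liver, APOA1, APOA2 and APOB were higher in DE, at 33.7, 72.0 and 13.7 TPM, while AFP was at 0.178 TPM, TTR at 0.306 TPM and FGB was listed at 0. VWF, a clotting protein typical of endothelium, was at 0.465 TPM in hESCs against 191 TPM in DE (log2 ratio 7.04), yet PECAM1, CDH5 and ERG stayed at or below 0.430 TPM in both stages and the endothelial receptor TEK was lower in DE, at 32.3 TPM in hESCs against 1.01 TPM in DE (log2 ratio -4.06). Of 7 germ cell genes TFAP2C was lower, at 12.7 TPM in hESCs against 0.767 TPM in DE (log2 ratio -2.95), and PRDM1, which endoderm also uses, was higher, at 1.95 TPM in hESCs against 37.9 TPM in DE (log2 ratio 3.72). The part of other cell types in these values was not tested. None of the 36 HOX genes in the table, which pattern the later body axis, reached 10 TPM in either stage.

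Most transcription factors of the primitive streak and endoderm that reached 10 TPM were higher in DE. Of 42 factors 25 reached 10 TPM, and 21 of these were at least 2-fold higher in DE, 1 was lower and 3 were under 2-fold, with a median of 3.31 (rescaled 2.88). Among the 18 endoderm factors at this level, 17 were higher. Most of the 18 were below 10 TPM in hESCs and passed the limit through DE, which favours this outcome. GATA4, a partner of GATA6, was at 0.734 TPM in hESCs against 47.5 TPM in DE (log2 ratio 4.81). FOXA1, a pioneer factor that opens chromatin at endoderm enhancers, was at 0.0733 TPM in hESCs against 28.5 TPM in DE (log2 ratio 4.78), and its relative FOXA2 at 1.88 TPM in hESCs against 39.6 TPM in DE (log2 ratio 3.82). These factors were near or below 2 TPM in hESCs, so the pseudocount makes their ratios smaller than the plain ratio of TPM values would be. HHEX, a homeobox factor of anterior endoderm, was at 1.08 TPM in hESCs against 45.0 TPM in DE (log2 ratio 4.46), and HNF4A, a factor of gut and liver epithelium, at 0.176 TPM in hESCs against 19.7 TPM in DE (log2 ratio 4.14). OTX2, a head organizer factor that hESCs also express, was at 22.1 TPM in hESCs against 229 TPM in DE (log2 ratio 3.31).

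The primitive streak genes were less uniform, with 4 of 7 at 10 TPM or more higher in DE. EOMES, an early T-box target of Nodal, was at 12.5 TPM in hESCs against 172 TPM in DE (log2 ratio 3.69), LHX1 at 2.28 TPM in hESCs against 56.8 TPM in DE (log2 ratio 4.14) and GSC, the organizer homeobox gene, at 5.46 TPM in hESCs against 34.6 TPM in DE (log2 ratio 2.46). By contrast T, the streak and mesoderm T-box factor brachyury, was at 2.76 and 2.85 TPM, and MIXL1 was at 7.80 TPM in hESCs against 10.5 TPM in DE (log2 ratio 0.39), under 2-fold. EVX1 was listed at 0 in hESCs and was at 5.90 TPM in DE, below the limit. NKX1-2, a homeobox factor, was the 1 lower member of the list, at 35.4 TPM in hESCs against 2.36 TPM in DE (log2 ratio -3.44).

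On the unscaled values the pluripotency genes did not differ in 1 direction. Of 38 genes of the list, 32 reached 10 TPM, of which 16 were at least 2-fold lower in DE, 3 were higher and 13 were under 2-fold (median -0.92). After rescaling 19 were lower and 1, OTX2, was higher (median -1.35), and 29 of the 32 were below 0. All 3 core factors were lower. POU5F1 was at 1449 TPM in hESCs against 417 TPM in DE (log2 ratio -1.79). SOX2 had a log2 ratio of -2.52 and NANOG of -2.20, and POU5F1 and SOX2 still stood at 417 and 22.4 TPM on day 4. PRDM14, which represses differentiation genes in hESCs, was at 47.3 TPM in hESCs against 4.75 TPM in DE (log2 ratio -3.07), and DPPA2, a chromatin factor of early embryos, at 19.4 TPM in hESCs against 1.63 TPM in DE (log2 ratio -2.96).

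Within the pluripotency list, the 3 largest differences in the lower direction, by fold, were in noncoding RNAs, and all 4 of these that reached 10 TPM were lower. ESRG, a transcript driven by an endogenous retrovirus of the HERV-H family, was at 129 TPM in hESCs against 3.13 TPM in DE (log2 ratio -4.98). LINC00678 was at 336 TPM in hESCs against 7.37 TPM in DE (log2 ratio -5.33), LINC00458 at 1269.9 TPM in hESCs against 234 TPM in DE (log2 ratio -2.44) and LINC-ROR, a modulator of reprogramming, at 22.5 TPM in hESCs against 1.63 TPM in DE (log2 ratio -3.16). HHLA1 and ABHD12B, which are known to be transcribed from HERV-H elements, were also among the 20 genes of the whole table with the largest difference in the lower direction, at 0.776 and 4.44 TPM in DE against 64.6 and 109 TPM in hESCs.

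The RNA-binding members stayed under 2-fold in DE. LIN28A, which blocks maturation of let-7 miRNAs, was at 724 TPM in hESCs against 772 TPM in DE (log2 ratio 0.09), LIN28B at 56.3 TPM in hESCs against 64.2 TPM in DE (log2 ratio 0.19) and TRIM71 at 134 TPM in hESCs against 115 TPM in DE (log2 ratio -0.22). L1TD1, which binds RNA with LIN28A, was at 413 TPM in hESCs against 237 TPM in DE (log2 ratio -0.80), and it alone of the 4 was past 2-fold after rescaling (-1.23). The surface protein PODXL was at 210.2 TPM in hESCs against 229 TPM in DE (log2 ratio 0.12), and TDGF1, the Nodal co-receptor also known as Cripto, was at 255 TPM in hESCs against 293 TPM in DE (log2 ratio 0.20). All 3 members that were higher in DE were transcription factors, among them OTX2 and SALL4, the latter at 103 TPM in hESCs against 225 TPM in DE (log2 ratio 1.12). After rescaling SALL4 had a log2 ratio of 0.68, under 2-fold, and LIN28A, LIN28B, PODXL and TDGF1 changed sign, to between -0.35 and -0.24.

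**Figure D2:**
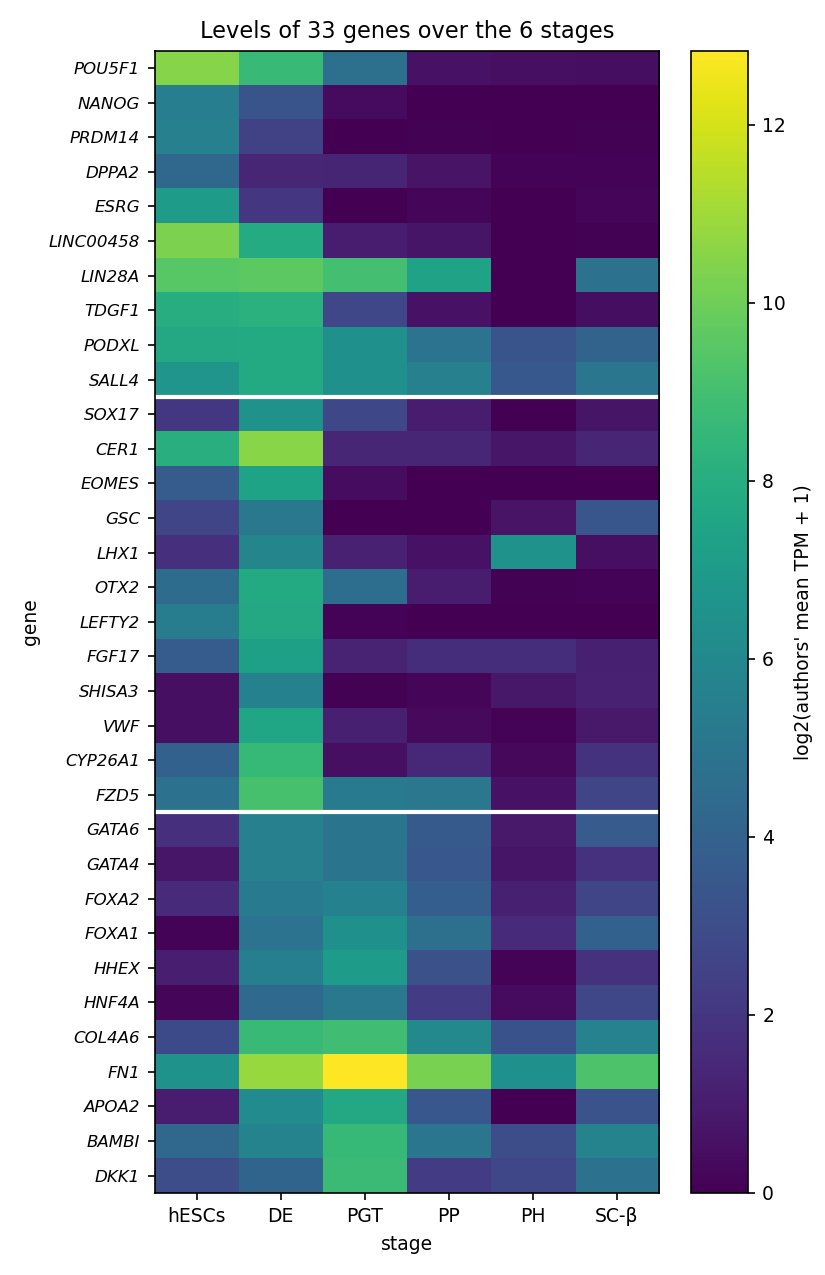
Rows are 33 genes chosen after their values were seen and columns are the 6 stages, with colour giving log2 of the authors' mean TPM plus 1. The upper block holds pluripotency genes, whose levels decline at different stages, the middle block genes whose level in DE was above that in PGT, and the lower block endoderm, matrix and signalling genes still at 29.6 TPM or more in PGT.

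The MIR302 and MIR367 cluster, an miRNA family highly abundant in hESCs, was under 2-fold as well. Its hairpins lie within about 1 kb on the reverse strand of chromosome 4, and RNA-seq of this kind reads the precursor and its host transcript, not the mature miRNA of about 22 bases. MIR302A was at 96.0 TPM in hESCs against 113 TPM in DE (log2 ratio 0.23), MIR302C at 145 TPM in hESCs against 141 TPM in DE (log2 ratio -0.03) and MIR367 at 41.0 TPM in hESCs against 38.6 TPM in DE (log2 ratio -0.08). MIR302B and MIR302D had log2 ratios of 0.04 and 0.07. In PGT the highest of the 5 was MIR302C, at 6.49 TPM. The 5 hairpins were thus level across the first step and low at the next, although after rescaling all of them were slightly lower in DE, from -0.51 for MIR367 to -0.21 for MIR302A. The mature sequences are shown because the cluster carries only 2 seeds, the bases 2 to 8 that pair with targets, which are in capitals. They are from RefSeq on GRCh38.p14, at chr4:112648186-112648208, chr4:112648489-112648511, chr4:112648366-112648388, chr4:112648006-112648028 and chr4:112647877-112647898 in the order given, all on the reverse strand.
hsa-miR-302a-3p: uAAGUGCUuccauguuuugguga
hsa-miR-302b-3p: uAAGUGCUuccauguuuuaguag
hsa-miR-302c-3p: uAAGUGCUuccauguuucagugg
hsa-miR-302d-3p: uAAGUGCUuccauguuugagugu
hsa-miR-367-3p: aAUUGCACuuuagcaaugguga
The 4 members of the miR-302 family share the seed AAGUGCU and differ only toward the 3′ end, whereas miR-367 has the seed AUUGCAC. Of 23 hairpins at 10 TPM or more, 12 were at least 2-fold higher in DE and 2 were lower, beside 23.5% and 6.37% of all genes. The largest ratio was that of MIR1263, from 0.185 to 26.1 TPM (log2 ratio 4.51).

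In the Nodal and Activin pathway, most ligands were lower and the receptors were higher. The list had 31 of 40 genes at 10 TPM or more, of which 17 were higher, 3 lower and 11 under 2-fold (median 1.23, rescaled 0.81, where 11 were higher and 4 lower). Of all genes 23.5% were higher and 6.37% lower. The 3 lower genes were all ligands. NODAL itself was at 181 TPM in hESCs against 31.3 TPM in DE (log2 ratio -2.49), GDF3, a Nodal relative of the early embryo, at 33.1 TPM in hESCs against 11.8 TPM in DE (log2 ratio -1.41) and INHBE, an activin subunit, at 10.6 TPM in hESCs against 0.239 TPM in DE (log2 ratio -3.22). GDF11 was the 1 ligand that was higher, at 3.94 TPM in hESCs against 13.6 TPM in DE (log2 ratio 1.57). All 4 receptors at this level were higher: ACVR1B, a type I receptor, went from 5.87 to 31.6 TPM (log2 ratio 2.25), the type II receptors ACVR2A and ACVR2B had log2 ratios of 1.53 and 1.52, and TGFBR1 had 1.23. Rescaled, TGFBR1 was under 2-fold, at 0.81.

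The feedback inhibitors of the pathway were not uniform. LEFTY2 was at 42.6 TPM in hESCs against 215 TPM in DE (log2 ratio 2.31), whereas LEFTY1, its close paralog and neighbour, was at 168 TPM in hESCs against 112 TPM in DE (log2 ratio -0.59), under 2-fold and, after rescaling, lower by 2-fold (-1.02). Reads of the paralogs may be split between them, and the sum of LEFTY1 and LEFTY2 is not affected by such a split. FST, which binds Activin, was at 21.8 TPM in hESCs against 51.7 TPM in DE (log2 ratio 1.21). SMAD7, an intracellular brake, and BAMBI, a decoy receptor, had log2 ratios of 1.28 and 1.49. Of the partners of SMAD2 in the nucleus, FOXH1 was at 21.9 TPM in hESCs against 57.8 TPM in DE (log2 ratio 1.36), and the targets SHISA2, FGF17 and GSC were higher, with log2 ratios of 5.73, 3.54 and 2.46. After rescaling FST, SMAD7 and FOXH1 were under 2-fold, at 0.78, 0.85 and 0.93, while BAMBI was at 1.06.

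In the WNT pathway, the genes higher in DE were largely receptors and inhibitors, and no ligand was among them. Of 74 genes 36 reached 10 TPM, with 20 higher, 3 lower and 13 under 2-fold (median 1.37, rescaled 0.96), beside 23.5% and 6.37% of all genes. Of 19 ligand genes only WNT3 reached 10 TPM, at 12.1 TPM in hESCs against 9.76 TPM in DE (log2 ratio -0.28). Of 14 receptors at 10 TPM or more, 8 were higher and 6 were under 2-fold. Several of the 8, FZD8, FZD4, LGR5 and ROR2 among them, were below 10 TPM in hESCs and passed the limit through DE. FZD7, of the latter, was at 78.7 TPM in hESCs against 128 TPM in DE (log2 ratio 0.70). FZD5, a Frizzled receptor, was at 27.5 TPM in hESCs against 543 TPM in DE (log2 ratio 4.25), the highest level of any Frizzled gene in DE. FZD8 was at 2.49 TPM in hESCs against 66.8 TPM in DE (log2 ratio 4.28), FZD4 at 3.40 TPM in hESCs against 47.7 TPM in DE (log2 ratio 3.47) and LGR5, the R-spondin receptor known from intestinal stem cells, at 0.571 TPM in hESCs against 38.5 TPM in DE (log2 ratio 4.65). ROR2, a receptor for noncanonical WNT5A signals, was at 6.09 TPM in hESCs against 67.2 TPM in DE (log2 ratio 3.27), and WLS and PORCN, which export and acylate WNT proteins, had log2 ratios of 2.46 and 1.75.

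Of 9 inhibitors of WNT at 10 TPM or more, 6 were higher and 2 were lower. All 6 were below 10 TPM in hESCs and passed the limit through DE, which favours this outcome. SFRP1, a secreted decoy for WNT proteins, was at 8.17 TPM in hESCs against 476 TPM in DE (log2 ratio 5.70), and its relative FRZB at 0.588 TPM in hESCs against 50.3 TPM in DE (log2 ratio 5.01). SHISA2 and SHISA3, which hold Frizzled and FGF receptors in the endoplasmic reticulum, were at 227 and 49.1 TPM in DE against 3.30 and 0.449 TPM. NOTUM, a lipase that inactivates WNT proteins, reached 11.1 TPM. In the opposite direction, DKK4 was at 20.4 TPM in hESCs against 0.557 TPM in DE (log2 ratio -3.78) and SFRP2 at 68.2 TPM in hESCs against 21.2 TPM in DE (log2 ratio -1.64), while DKK1 was modestly higher, at 7.16 TPM in hESCs against 16.8 TPM in DE (log2 ratio 1.13). The common transcriptional target AXIN2 was at 16.6 TPM in hESCs against 18.2 TPM in DE (log2 ratio 0.12), and SP5, another target, at 13.4 TPM in hESCs against 26.3 TPM in DE (log2 ratio 0.92), both under 2-fold on day 4.

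Of 8 BMP ligand genes 2 reached 10 TPM, BMP2 and BMP7, and both were higher. Both were below 10 TPM in hESCs and passed the limit through DE, so by the limit itself neither could be lower. BMP2 was at 2.15 TPM in hESCs against 82.6 TPM in DE (log2 ratio 4.73), BMP7 at 8.78 TPM in hESCs against 31.4 TPM in DE (log2 ratio 1.73), and BMP4 stayed below 10 TPM. Downstream of BMP, ID1 was at 79.4 TPM in hESCs against 412 TPM in DE (log2 ratio 2.36), ID4 at 3.19 TPM in hESCs against 45.0 TPM in DE (log2 ratio 3.46) and the inhibitory SMAD6 at 3.57 TPM in hESCs against 104 TPM in DE (log2 ratio 4.52), and the extracellular regulator BMPER at 0.743 TPM in hESCs against 45.0 TPM in DE (log2 ratio 4.72). ID2 was at 36.2 TPM in hESCs against 48.4 TPM in DE (log2 ratio 0.41), so that the ID genes differed among themselves. In all, 11 of 19 BMP genes at 10 TPM or more were higher and 1, CHRDL1, was lower (log2 ratio -1.43). Of 23 FGF pathway genes 11 were higher and 1 lower, and 7 of 13 feedback genes and targets were among the former, beside 23.5% of all genes higher. After rescaling 7 of the 23 were higher and 4 lower, the latter being FGF2, ETV4, ETV1 and SPRY1. FGF2, the growth factor that maintains hESCs, was at 56.6 TPM in hESCs against 6.82 TPM in DE (log2 ratio -2.88), and FGF17, a ligand of the streak and anterior endoderm, at 12.5 TPM in hESCs against 156 TPM in DE (log2 ratio 3.54). The ERK phosphatases DUSP4 and DUSP6 had log2 ratios of 3.94 and 2.51, whereas the ETS factors ETV4 and ETV5, also regarded as FGF targets, had log2 ratios of -0.72 and 0.38. FLRT3, a membrane protein that promotes FGF signalling and endoderm migration, was at 4.90 TPM in hESCs against 137 TPM in DE (log2 ratio 4.55).

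**Figure D3:**
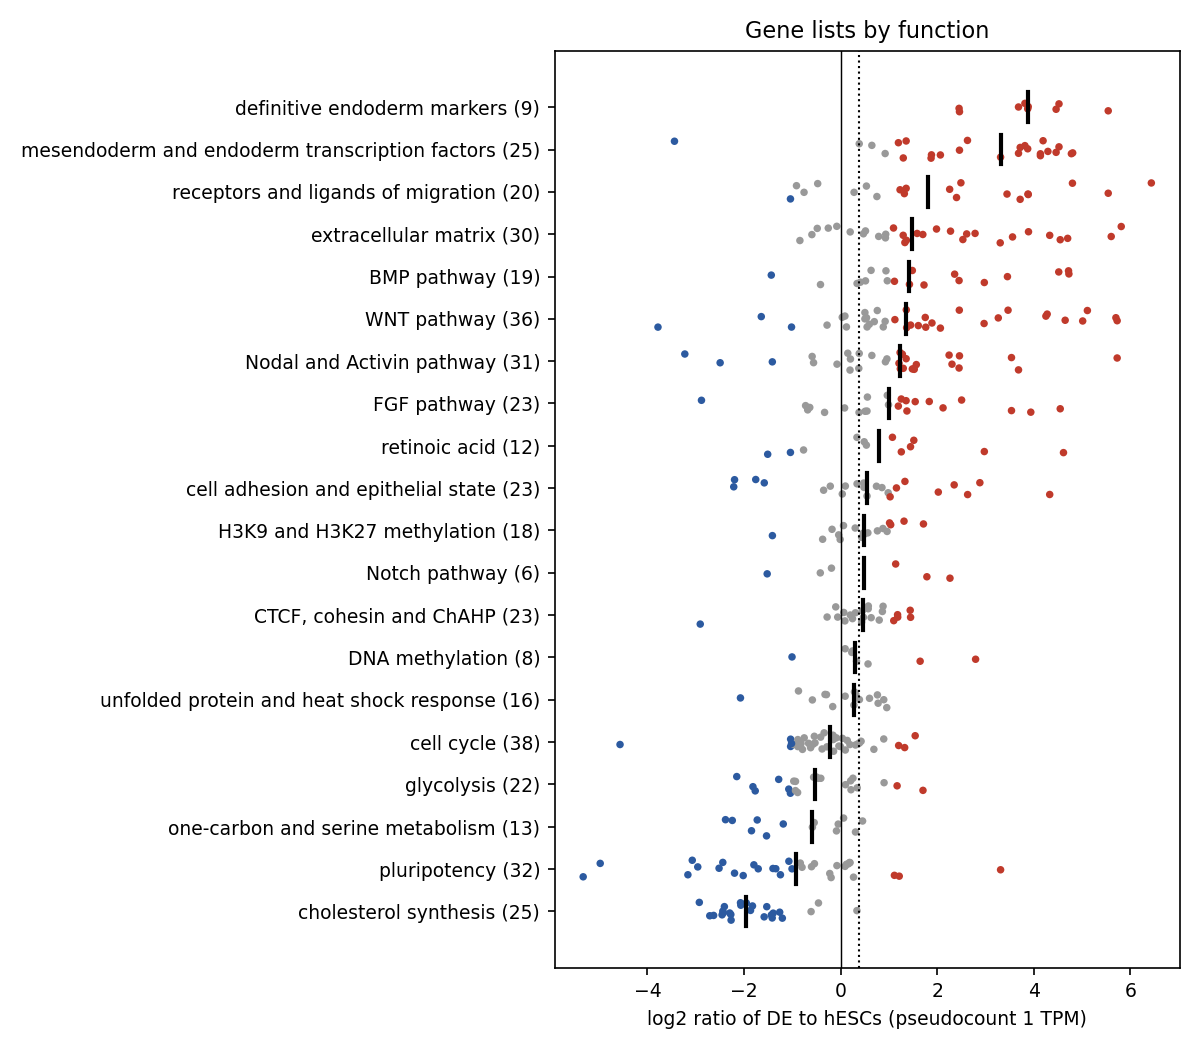
Each row is a gene list with its number of members at 10 TPM or more in brackets, and each point is a member placed by its log2 ratio of DE to hESCs, red from 2-fold higher, blue from 2-fold lower and grey between; black bars are list medians and the dotted line is the median of all genes, 0.39. The medians run from -1.95 for cholesterol synthesis to 3.88 for the definitive endoderm markers.

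Genes of cell adhesion and epithelial state differed in both directions, with 8 of 23 higher, 4 lower and 11 under 2-fold (median 0.55, rescaled 0.12). Of all genes 23.5% were higher and 6.37% lower. CDH2, the N-cadherin that mesendoderm gains, was at 61.6 TPM in hESCs against 462 TPM in DE (log2 ratio 2.88), whereas the E-cadherin gene CDH1 was at 87.4 TPM in hESCs against 68.4 TPM in DE (log2 ratio -0.35), under 2-fold. None of 6 transcription factors of epithelial-mesenchymal transition reached 10 TPM, with SNAI1 at 5.39 TPM and SNAI2 at 0.355 TPM in DE. Of 5 mesenchymal genes FN1, ITGA5 and ITGAV were higher (log2 ratios 4.33, 2.63 and 1.16) and S100A4 and VIM were lower, the latter, an intermediate filament, at 226 TPM in hESCs against 48.0 TPM in DE (log2 ratio -2.21). Of 15 epithelial genes 4 were higher, 2 lower and 9 under 2-fold, with a share of higher genes close to the 23.5% of all genes. The claudins CLDN4 and CLDN10 were lower (log2 ratios -1.58 and -1.76), CLDN3 was higher (2.02) and the keratin KRT18 had 0.04. EPCAM, KRT8 and KRT19 were higher, from 160.1 to 405 TPM (log2 ratio 1.33), 517 to 1055 TPM (log2 ratio 1.03) and 126 to 646 TPM (log2 ratio 2.35), although EPCAM and KRT8 were under 2-fold after rescaling (0.90 and 0.59). N-cadherin RNA was thus several-fold higher while E-cadherin RNA was within 2-fold, also after rescaling (-0.78).

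Matrix genes were higher in 19 of 30 cases and lower in none (median 1.47, rescaled 1.06, where 15 were higher and 2 lower). Of all genes 23.5% were higher and 6.37% lower. FN1, fibronectin, was at 90.8 TPM in hESCs against 1846 TPM in DE (log2 ratio 4.33) and reached 7276 TPM in PGT. The basement membrane collagens were prominent. COL4A6 was at 6.29 TPM in hESCs against 408 TPM in DE (log2 ratio 5.81) and COL4A5 at 14.3 TPM in hESCs against 397 TPM in DE (log2 ratio 4.70). These genes lie head to head on chromosome X, with annotated starts at 108439497 and 108439838, 341 bases apart, and reached nearly the same level in DE. COL4A1 and COL4A2, the corresponding pair on chromosome 13, were at 469.6 and 246 TPM (log2 ratios 2.53 and 1.99). The laminin chain LAMA1 was at 20.7 TPM in hESCs against 213 TPM in DE (log2 ratio 3.31), while LAMC1 and NID1, of the same membrane, had log2 ratios of -0.48 and -0.08. HAS2, a hyaluronan synthase, was at 22.8 TPM in hESCs against 352 TPM in DE (log2 ratio 3.89). By gene name, 14 of 22 collagens at 10 TPM or more were higher in DE and 1 was lower.

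Genes of cell migration and guidance included the largest ratio of any protein in the lists other than VWF. Of 31 genes 20 reached 10 TPM, with 13 higher, 1 lower and 6 under 2-fold (median 1.81), beside 23.5% and 6.37% of all genes. After rescaling 10 were higher and 3 lower (median 1.39). SEMA3E, a secreted semaphorin, was at 1.10 TPM in hESCs against 181 TPM in DE (log2 ratio 6.44). ACKR3, a second receptor for the chemokine CXCL12, was at 1.72 TPM in hESCs against 74.9 TPM in DE (log2 ratio 4.80), while CXCL12 itself was lower, at 20.1 TPM in hESCs against 9.29 TPM in DE (log2 ratio -1.04). Both receptors were thus higher while their shared ligand was lower. PLXNA2, EPHB3 and SEMA6D had log2 ratios of 3.72, 3.45 and 3.88. Each was at or below 1.83 TPM in hESCs and passed the limit through DE, which favours a higher value. SEMA6A was at 210 TPM in hESCs against 124 TPM in DE (log2 ratio -0.76, rescaled -1.19). APELA, of the apelin axis, was at 34.4 TPM in hESCs against 17.8 TPM in DE (log2 ratio -0.91, rescaled -1.32). KITLG, the ligand of KIT, was at 20.9 TPM in hESCs against 14.8 TPM in DE (log2 ratio -0.47), under 2-fold.

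Cholesterol synthesis was the list most consistently lower in DE. Of 25 genes, all at 10 TPM or more, 22 were at least 2-fold lower, 0 were higher and 3 were under 2-fold, with a median of -1.95 (rescaled -2.38) against 6.37% of all genes lower. The pathway builds cholesterol from acetyl-CoA by way of mevalonate and squalene, and its genes are switched on together by SREBP2 when sterols in the endoplasmic reticulum are low. At its entry, ACAT2 was at 332 TPM in hESCs against 50.03 TPM in DE (log2 ratio -2.71) and HMGCS1 (ENSG00000112972.15, chromosome 5, 43287470 to 43313512, reverse strand) at 392.0 TPM in hESCs against 71.6 TPM in DE (log2 ratio -2.44). SQLE, which oxidizes squalene, was at 211 TPM in hESCs against 57.3 TPM in DE (log2 ratio -1.86). In the middle, IDI1, FDPS and FDFT1 had log2 ratios of -2.43, -2.07 and -2.29, and at the end of the path DHCR7 had -1.58.

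Of the 5 genes that sense, import or carry sterol, 4 were lower as well. INSIG1, which retains the SREBP complex when sterol is high, was at 98.8 TPM in hESCs against 15.1 TPM in DE (log2 ratio -2.63). STARD4, which carries sterol between membranes, was at 74.8 TPM in hESCs against 17.0 TPM in DE (log2 ratio -2.07). The regulator SREBF2, which encodes SREBP2, was at 72.4 TPM in hESCs against 47.1 TPM in DE (log2 ratio -0.61), under 2-fold, and -1.04 after rescaling. PMVK had a log2 ratio of -0.46, and TM7SF2, a sterol reductase whose reaction another enzyme can also carry out, was the only member above 0, at 55.0 TPM in hESCs against 69.9 TPM in DE (log2 ratio 0.34). After rescaling TM7SF2 had a log2 ratio of -0.09. The levels in DE were close to those at the next stage for most members, for example 71.6 and 65.2 TPM for HMGCS1 and 50.03 and 46.7 TPM for ACAT2 in DE and PGT. The list median was 153 TPM in hESCs, 38.3 TPM in DE and 41.8 TPM in PGT.

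**Figure D4:**
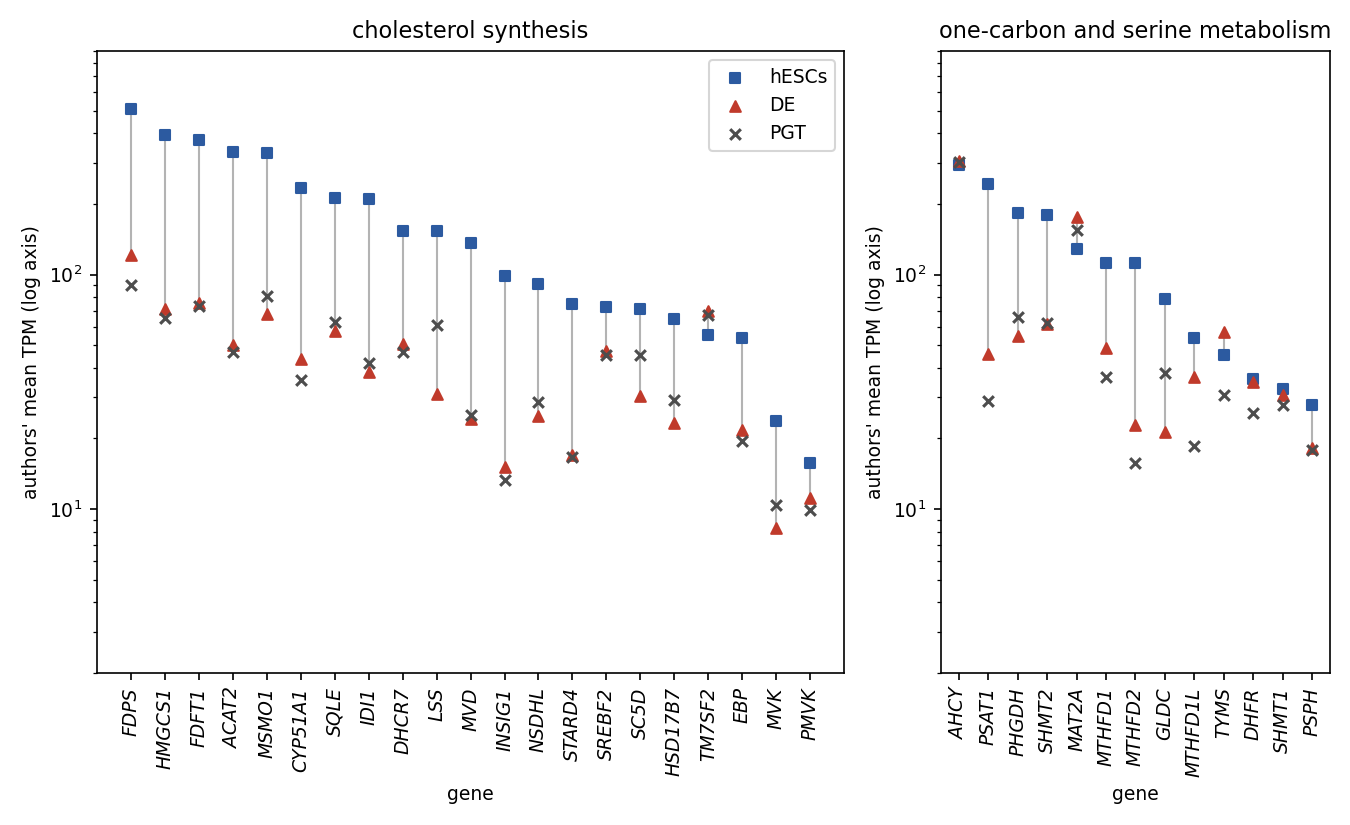
Points give the authors' mean TPM (log axis) of 21 of the 25 genes of cholesterol synthesis (left) and of the 13 of one-carbon and serine metabolism (right) in hESCs (squares), DE (triangles) and PGT (crosses), ordered by the level in hESCs, with grey lines joining hESCs and DE. On the left every gene but TM7SF2 is lower in DE than in hESCs, and most crosses lie close to the triangles.

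Because these genes were lower together, their promoters were read from RefSeq on GRCh38.p14, 250 bases before to 50 bases after the start, which held 18 of the 25 genes. The motif CCAAT, the letters bound by NF-Y, which acts beside SREBP2 at such promoters, was searched on both strands. It occurred in 15 of the 18 (83.3%), against 3008 of 7909 (38.03%) for all genes at 10 TPM or more with a promoter in the table and 9747 of 27305 (35.7%) for all promoters. Among genes at least 4-fold lower in DE it occurred in 53 of 134 promoters (39.6%), near the share of all genes. Among those at least 4-fold higher it occurred in 139 of 438 (31.7%). None of the letter strings searched contains another. A match to 5 letters is a description and not a site. The sterol response element, searched as TCACNCCAC on both strands, was found in 1 of the 18, that of SREBF2 itself, against 1.18% of the 7909, which says only that these letters are not in the other windows. Windows with the CCAAT match on either strand in capitals, for genes of the entry, middle and control of the path, follow with the 45 bases around the match. They lie at chr5:43313488-43313532 (reverse strand), chr1:155308724-155308768 (forward), chr4:165327573-165327617 (forward), chr7:155297688-155297732 (forward) and chr5:111512641-111512685 (reverse), and the matches begin 100, 122, 76, 170 and 130 bases before the RefSeq start. For HMGCS1 this start differs from the GENCODE gene boundary given above, at which the match lies.
HMGCS1: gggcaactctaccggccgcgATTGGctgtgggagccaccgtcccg
FDPS: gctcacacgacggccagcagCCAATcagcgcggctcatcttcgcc
MSMO1: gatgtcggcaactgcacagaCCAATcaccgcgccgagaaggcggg
INSIG1: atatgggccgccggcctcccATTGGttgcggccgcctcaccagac
STARD4: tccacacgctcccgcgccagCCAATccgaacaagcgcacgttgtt
In HMGCS1 and INSIG1 the match is on the strand opposite to the gene, and in FDPS, MSMO1 and STARD4 it is on the gene's own strand. The 5 genes had log2 ratios of -2.44, -2.07, -2.27, -2.63 and -2.07 in that order, and TM7SF2, which was not lower, also held a match.

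Motifs of 3 transcription factor families were searched in the same way in the promoters of the genes that differed most. Over the 438 promoters of genes at least 4-fold higher in DE, the GATA motif AGATAA occurred in 27 (6.16%) against 4.59% of the 7909, and the FOXH1 motif TGTNNATT in 30 (6.85%) against 5.13%. The octamer ATGCAAAT, the letters of POU5F1, occurred in 2 of the 134 promoters of genes at least 4-fold lower (1.49%) against 1.31%, and in these 134 the GATA and FOXH1 letters occurred in 8 (5.97%) and 13 (9.70%). Over all 27305 promoters the GATA and FOXH1 letters occurred in 10.5% and 11.1%, more than in either set. No test was run on these shares.

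Serine and one-carbon metabolism, which supplies carbon units for nucleotides and methylation, was lower in part. Of 13 genes 6 were lower and 7 under 2-fold (median -0.58, rescaled -0.995), beside 6.37% of all genes lower. PSAT1 was at 244 TPM in hESCs against 45.9 TPM in DE (log2 ratio -2.38), and the first enzyme of serine synthesis, PHGDH, at 183 TPM in hESCs against 54.8 TPM in DE (log2 ratio -1.73). The mitochondrial enzymes MTHFD2, SHMT2 and GLDC had log2 ratios of -2.24, -1.53 and -1.84, whereas the cytosolic SHMT1 had -0.08. TRIB3, a target of the amino acid response factor ATF4, was at 11.0 TPM in hESCs against 1.86 TPM in DE (log2 ratio -2.07), and ATF4 itself at 381 TPM in hESCs against 208 TPM in DE (log2 ratio -0.87), under 2-fold. MTHFD1, of the cytosol, was also lower (log2 ratio -1.19), whereas PSPH, of serine synthesis, and the mitochondrial MTHFD1L were under 2-fold, with log2 ratios of -0.58 and -0.55, and AHCY and MAT2A, of the methionine cycle, had log2 ratios of 0.06 and 0.46.

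In glycolysis 6 of 22 genes were lower, 2 higher and 14 under 2-fold (median -0.53, rescaled -0.96), beside 6.37% of all genes lower and 23.5% higher. The glucose transporter SLC2A1 was at 85.4 TPM in hESCs against 23.6 TPM in DE (log2 ratio -1.81) and hexokinase HK1 at 125 TPM in hESCs against 36.1 TPM in DE (log2 ratio -1.77), while SLC2A3 and HK2 had log2 ratios of 0.35 and 0.10. ENO1 and PGAM1 had log2 ratios of -1.28 and -1.07, and the lactate exporter SLC16A3 was higher, at 5.28 TPM in hESCs against 19.5 TPM in DE (log2 ratio 1.71). Nuclear genes of oxidative phosphorylation had 0 of 85 higher and 9 lower (22 lower after rescaling, median -0.36), and the cytosolic ribosomal proteins 0 of 84 higher and 4 lower (24 lower after rescaling, median -0.35), while the 13 protein genes of the mitochondrial genome had a median of 0.72 (rescaled 0.28). Of 77 mitochondrial ribosomal proteins 2 were higher and 3 lower (15 lower after rescaling, median -0.33).

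On the unscaled values most cell cycle genes stayed within 2-fold of their level in hESCs, although more were below 0 than above. Of 38 cell cycle genes 31 were under 2-fold, 4 were lower and 3 higher (median -0.22), and 25 were below 0. After rescaling 12 were lower, 1 was higher and 33 were below 0 (median -0.65). The 15 proliferation genes had a median of -0.57 and the 10 replication genes of -0.36, against 0.39 for all genes. Of all genes 70.1% were under 2-fold. MKI67 was at 17.7 TPM in hESCs against 22.9 TPM in DE (log2 ratio 0.36), TOP2A at 146 TPM in hESCs against 132 TPM in DE (log2 ratio -0.14) and CCNB1 at 182 TPM in hESCs against 88.4 TPM in DE (log2 ratio -1.03). The replication gene PCNA was at 289 TPM in hESCs against 188 TPM in DE (log2 ratio -0.62, rescaled -1.06). The CDK inhibitor CDKN1A, or p21, stood apart at 50.003 TPM in hESCs against 1.15 TPM in DE (log2 ratio -4.57) and was back at 51.4 TPM in PP. CDKN1C, or p57, was at 5.89 TPM in hESCs against 16.3 TPM in DE (log2 ratio 1.33), CDK2 at 16.3 TPM in hESCs against 49.6 TPM in DE (log2 ratio 1.55) and CCND1 at 137 TPM in hESCs against 67.1 TPM in DE (log2 ratio -1.01). Of 60 replication-dependent histone genes at 10 TPM or more, many of them near-identical copies, 3 were higher and 10 lower (median -0.24).

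The list of CTCF, cohesin and the ChAHP complex, the chromatin regulators at the centre of the study, was divided much as all genes were. It also held genes outside these groups, of which 3 reached 10 TPM. CTCF binds the anchors of chromatin loops, cohesin extrudes the loops, and ChAHP, made of CHD4, ADNP and HP1 proteins, competes with CTCF for some sites. Of 23 genes 17 were under 2-fold, 5 higher and 1 lower, against 70.1%, 23.5% and 6.37% of all genes (median 0.47, rescaled 0.05). CTCF was at 38.8 TPM in hESCs against 52.8 TPM in DE (log2 ratio 0.44) and RAD21 at 101 TPM in hESCs against 139 TPM in DE (log2 ratio 0.45), both within 0.1 of the median of all genes. The cohesin loader NIPBL was at 20.8 TPM in hESCs against 48.6 TPM in DE (log2 ratio 1.18), the cohesin regulator PDS5B at 17.5 TPM in hESCs against 40.8 TPM in DE (log2 ratio 1.18), and HDAC8, which deacetylates SMC3, at 10.1 TPM in hESCs against 22.7 TPM in DE (log2 ratio 1.10). ADNP and CBX5 of ChAHP were the largest, from 13.7 to 39.0 TPM (log2 ratio 1.44) and 53.9 to 149 TPM (log2 ratio 1.45), and they were the only 2 of the list still past 2-fold in the higher direction after rescaling, at 1.02 and 1.02. The AP-1 gene FOS, which is outside the named groups, was the 1 lower member, at 85.5 TPM in hESCs against 10.5 TPM in DE (log2 ratio -2.91). No gene of CTCF, cohesin or ChAHP at 10 TPM or more was thus at least 2-fold lower.

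Of 8 DNA methylation genes 2 were higher, 1 lower and 5 under 2-fold, and of 18 genes of H3K9 and H3K27 methylation 4 were higher, 1 lower and 13 under 2-fold, beside 70.1% of all genes under 2-fold. The de novo methyltransferase DNMT3B, abundant in hESCs, was at 375 TPM in hESCs against 186 TPM in DE (log2 ratio -1.005), just past 2-fold, whereas DNMT3A was at 47.5 TPM in hESCs against 56.0 TPM in DE (log2 ratio 0.23). The dioxygenase TET2 was at 0.891 TPM in hESCs against 12.1 TPM in DE (log2 ratio 2.80) and TET3 at 3.66 TPM in hESCs against 13.6 TPM in DE (log2 ratio 1.65), and TET1, the main form in hESCs, at 45.4 TPM in hESCs against 48.6 TPM in DE (log2 ratio 0.10). Among H3K9 regulators ATF7IP, EHMT2 and SETDB1 had log2 ratios of 1.72, 1.31 and 1.01, of which ATF7IP alone was past 2-fold after rescaling (1.28). JARID2, a subunit of Polycomb complex PRC2, was lower, at 134 TPM in hESCs against 49.7 TPM in DE (log2 ratio -1.41), and EZH2 was at 28.8 TPM in hESCs against 43.1 TPM in DE (log2 ratio 0.57). The medians of both lists changed sign or fell near 0 after rescaling, from 0.29 to -0.14 for DNA methylation and from 0.48 to 0.07 for H3K9 and H3K27 methylation.

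Of 12 retinoic acid genes 6 were higher, 2 lower and 4 under 2-fold (rescaled 4 higher and 3 lower), and 5 of the 7 receptors and binding proteins were among the higher. Of 6 Notch genes 3 were higher and 1 lower (rescaled 2 and 1). Over all genes 23.5% were higher and 6.37% lower. CYP26A1, which degrades retinoic acid, was at 15.0 TPM in hESCs against 391.8 TPM in DE (log2 ratio 4.62) and was at 0.426 TPM in PGT. The receptor RARB was at 1.53 TPM in hESCs against 18.9 TPM in DE (log2 ratio 2.98), and the synthesizing enzyme ALDH1A3 was lower, at 10.2 TPM in hESCs against 4.45 TPM in DE (log2 ratio -1.04). In the Notch pathway NOTCH3 was at 15.8 TPM in hESCs against 57.0 TPM in DE (log2 ratio 1.79) and the glycosyltransferase LFNG at 5.13 TPM in hESCs against 28.5 TPM in DE (log2 ratio 2.27), while HES6 was at 20.3 TPM in hESCs against 6.42 TPM in DE (log2 ratio -1.52). The unfolded protein and heat shock list had 15 of 16 genes under 2-fold, with HSPA5 at 160.2 TPM in hESCs against 275 TPM in DE (log2 ratio 0.78), TRIB3 being the exception (median 0.28, rescaled -0.15).

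The 20 genes with the largest ratio in each direction, leaving out clone names, added genes outside these lists. In the higher direction SAMD11, a nuclear SAM domain gene, was at 0.0927 TPM in hESCs against 79.4 TPM in DE (log2 ratio 6.20), complement factor C5 at 0.171 TPM in hESCs against 79.6 TPM in DE (log2 ratio 6.10), the neuregulin receptor ERBB4 at 0.307 TPM in hESCs against 82.0 TPM in DE (log2 ratio 5.99) and ARHGAP24, a regulator of Rac, at 0.914 TPM in hESCs against 93.6 TPM in DE (log2 ratio 5.63). LINC00261, the noncoding RNA beside FOXA2, was at 0.546 TPM in hESCs against 72.9 TPM in DE (log2 ratio 5.58). Of 39 genes named LINC 18 were higher and 8 lower, beside 23.5% and 6.37% of all genes. TBX3, a T-box repressor, was at 0.310 TPM in hESCs against 53.1 TPM in DE (log2 ratio 5.37). COL9A2 was at 2.80 TPM in hESCs against 184 TPM in DE (log2 ratio 5.60) and KEL, a blood group peptidase, at 0.786 TPM in hESCs against 82.3 TPM in DE (log2 ratio 5.54). PLCXD3 and RHOBTB3 reached 48.2 and 223 TPM. The largest ratio of all was that of RN7SL3, listed at 0.0773 TPM in hESCs and 14379.6 TPM in DE, but its near-identical copies RN7SL1 and RN7SL2 held 106605 and 52306 TPM in hESCs and 83706 and 36343 TPM in DE, so that how the counting divides reads among them is uncertain and the ratio is not read. The ribosomal pseudogene RPS27P22, at 0.517 TPM in hESCs against 55.5 TPM in DE (log2 ratio 5.22), is uncertain in the same way.

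In the lower direction SPP1, the secreted phosphoprotein osteopontin, had the largest ratio, at 837 TPM in hESCs against 0.446 TPM in DE (log2 ratio -9.18). NTS, the precursor of neurotensin, was at 226 TPM in hESCs against 2.08 TPM in DE (log2 ratio -6.20), the calcium-binding ANXA1 at 64.1 TPM in hESCs against 0.436 TPM in DE (log2 ratio -5.50), and the calcium sensor VSNL1 at 79.5 TPM in hESCs against 1.95 TPM in DE (log2 ratio -4.77). CAV1, the coat protein of caveolae, was at 75.8 TPM in hESCs against 1.74 TPM in DE (log2 ratio -4.81), and PTRF, the older symbol of the coat protein cavin-1, at 33.4 TPM in hESCs against 0.789 TPM in DE (log2 ratio -4.27). LCP1, an actin bundler, was at 90.9 TPM in hESCs against 3.54 TPM in DE (log2 ratio -4.34) and at 92.2 TPM in PGT. TRIM22 and TRIML2 were at 1.39 and 2.34 TPM in DE against 54.3 and 64.2 TPM. TOMM6, a small subunit of the mitochondrial import pore, was at 158 TPM in hESCs against 6.11 TPM in DE (log2 ratio -4.48), AADACL3 at 30.3 TPM in hESCs against 0.0412 TPM in DE (log2 ratio -4.91) and LECT1 at 45.8 TPM in hESCs against 1.54 TPM in DE (log2 ratio -4.20). ERVMER61-1, a transcript of an endogenous retrovirus, was at 33.4 TPM in hESCs against 0.0298 TPM in DE (log2 ratio -5.06), and SNORD36A, a small nucleolar RNA, at 29.9 TPM in hESCs against 0.0826 TPM in DE (log2 ratio -4.83). HIST1H4F, a histone H4 gene whose coding sequence is close to those of other H4 genes, was listed at 74.7 TPM in hESCs and at 0 in DE.

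The genes that were at least 4-fold higher in DE differed in what followed. Their median level was 2.62 TPM in hESCs, 26.8 TPM in DE and 16.3 TPM in PGT, and 10.0 and 14.8 TPM in PP and SC-β. Of the 670, 409 (61.0%) had their highest value in DE and 108 (16.1%) in PGT, where the selection on DE itself favours the former. Of all 10505 genes 28.2% were highest in DE and 22.3% in hESCs. EOMES, LEFTY2, SHISA3, GSC and VWF were at or below 1.21 TPM in PGT. HHEX, FOXA1, HNF4A, APOA2, BAMBI and DKK1 were higher in PGT than in DE, at 137, 86.0, 33.7, 212, 390.5 and 429 TPM, of which BAMBI and DKK1 were past 2-fold but not 4-fold in DE. Of the 244 genes at least 4-fold lower, 212 (86.9%) had their highest value in hESCs, which the selection likewise favours, and their median level was 35.7 TPM in hESCs, 2.91 TPM in DE and 1.95 TPM in PGT. Between the stages 150 genes went from below 1 TPM to 10 TPM or more and 44 in the reverse direction.

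On the unscaled values long transcripts were shifted toward DE and short ones were not. Of the 10505 genes 10001 (95.2%) could be placed in GENCODE version 44. In protein-coding genes divided by their longest annotated transcript into 5 classes, the median log2 ratio was 0.01 in the shortest class (207 to 2031 bases), 0.25, 0.41 and 0.51 in the next, and 0.69 in the longest (6247 to 109224 bases). Read against the median of 0.39 over all genes, the shortest class thus lay on the side of hESCs and the longest on the side of DE. At least 2-fold higher were 12.3% of the shortest and 34.8% of the longest class, and 8.51% and 3.45% were at least 2-fold lower. ZNF genes, many of which encode KRAB zinc finger repressors, had 102 of 277 higher and 3 lower, with a median of 0.79. Of all genes 23.5% were higher and 6.37% lower. With the median of each length class subtracted, an alternative chosen after seeing the data, the list medians were -2.12 for cholesterol synthesis, 3.46 for the endoderm markers, 0.28 for ZNF genes and -0.12 for CTCF, cohesin and ChAHP. The part of transcript length in the smaller differences was not tested.

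**Figure D5:**
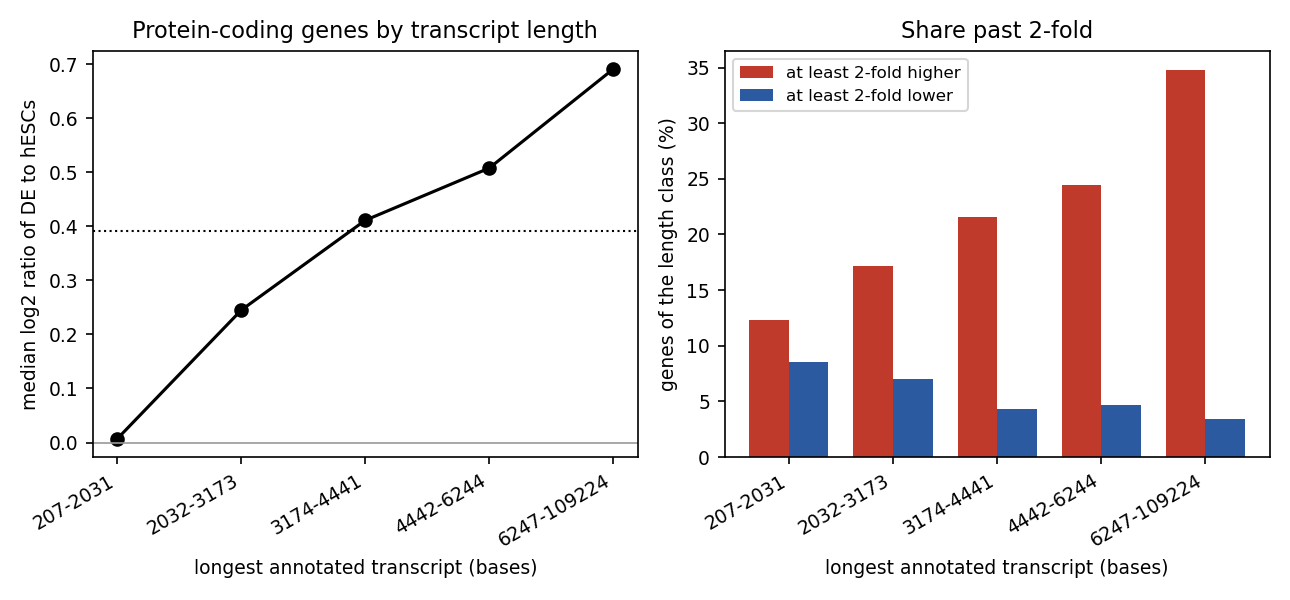
Protein-coding genes at 10 TPM or more are divided into 5 classes by the length of their longest annotated transcript (horizontal, bases). On the left the median log2 ratio of DE to hESCs goes from 0.01 to 0.69, with the median of all genes as a dotted line at 0.39; on the right bars give the share of each class at least 2-fold higher (red, 12.3% to 34.8%) or lower (blue, 8.51% to 3.45%).

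At the limits of the rule, IRF7 (10.0001 TPM), HHAT (10.0014 TPM) and PARVB (10.0094 TPM) were just inside and MOB2 (9.99871 TPM), WDSUB1 (9.9951 TPM) and ANKEF1 (9.99446 TPM) just outside 10 TPM in the higher stage. Closest to 2-fold were RHBDD1 and DNAJB14, just past it with log2 ratios that round to 1.00, and POLR2J2 and LINC01002, just short of it.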

How the data were processed

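RNA-seq of H9 hESCs and DE cells, 2 libraries each, was used. According to the labels and the study's methods, total RNA was extracted with Trizol, ribosomal RNA was removed with RiboMinus and strand-specific libraries were made with a kit for mRNA, so the share of noncoding RNA may depend on which selection was applied. The authors aligned paired-end reads to hg38 with HISAT2 2.2.0, computed TPM per gene with StringTie 2.1.6 and deposited 1 mean TPM per gene and stage. The annotation and strand setting of the counting are not given in the sources used here, so reads of overlapping and antisense genes may not be separated. Depth per library is unknown from TPM.

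The table held 50451 rows under 49085 names. Rows of the 231 names with several rows were summed, and log2((TPM in DE + 1) / (TPM in hESCs + 1)) was computed for the 10505 genes at 10 TPM or more in either stage. No test could be run on means. The 27 gene lists by function and 9 sets by name pattern were chosen with earlier results of these data known. Genes were named by a rule: cell type markers, in each list up to 4 genes a direction with the largest ratio and up to 3 under 2-fold with the highest level, and the 20 with the largest ratio a direction overall without clone names. Genes beyond the rule, the 33 genes of the plot by stage, the motifs and the promoters were chosen after their values were seen. Ensembl identifiers, positions and lengths came from GENCODE version 44, 9437 genes by symbol and 564 by an older symbol listed in RefSeq. The calculation was tested on simulated data. Alternatives were a pseudocount of 0.1 TPM, median-ratio rescaling, totals without structural RNAs and mitochondrial genes, the highest row of a repeated name, limits of 1 and 50 TPM, 4-fold and, added after seeing the data, subtraction of length-class medians. Values of some list members are not reported here. Python 3.11.15 with numpy, pandas and matplotlib was used.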

Additional observations from a re-analysis of the deposited data

How the results depend on the processing

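The count of genes at least 2-fold higher in DE than in hESCs (2469) became 1369 with median-ratio rescaling, 6352 with a limit of 1 TPM, 541 with a limit of 50 TPM, 670 at 4-fold and 1214 with length-class medians subtracted, the last chosen after seeing the data. The count of genes at least 2-fold lower in DE than in hESCs (669) became 1274, 1250, 286, 244 and 1008 under the same settings. The pseudocount of 0.1, totals without structural RNAs and mitochondrial genes, and the highest row of a repeated name kept both counts within 1.5 times. Of 439 genes in the lists or among the 20 largest a direction, none past 2-fold changed sign under the 4 settings applied to single genes. With rescaling 39 fell under 2-fold and 27 passed it, and 54 changed sign, all of them while under 2-fold in the main values. With a pseudocount of 0.1, 6 passed 2-fold, and without structural RNAs 3 of 437 fell under it and 5 passed.

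No paired analysis was possible because each deposited column averages both libraries of its stage. Leaving out a replicate and estimating the spread were not possible either. Values below 1 TPM have no known precision, and stage, medium, culture form and library cannot be told apart.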

Other observations

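A few groups that no list held were seen in the table after the fact and are given as values. All 6 metallothionein genes at 10 TPM or more, MT1E, MT1F, MT1G, MT1H, MT1X and MT2A, which bind zinc and copper, were at least 2-fold lower in DE, with a summed level of 139 TPM in hESCs and 11.4 TPM in DE and log2 ratios from -3.86 to -2.20. MT1X, the most abundant, was at 66.7 TPM in hESCs, 6.87 TPM in DE and 3.09 TPM in PGT. CAV2, a second caveolar protein, was at 14.2 TPM in hESCs against 2.31 TPM in DE (log2 ratio -2.20), beside CAV1 and PTRF, while PACSIN2 was at 44.5 TPM in hESCs against 41.2 TPM in DE (log2 ratio -0.11). Of 21 copies of SNORD116, a snoRNA cluster of the imprinted region on chromosome 15, 11 were lower and 0 higher, with a summed level of 1785 TPM in hESCs and 722 TPM in DE. Of all genes 6.37% were lower and 23.5% higher, and of 112 genes annotated as snoRNA 24 were lower and 11 higher. Reads of the near-identical SNORD116 copies may be split among them, which leaves the sum less affected.

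Among genes at least 4-fold higher in DE, some neighbours with annotated starts within 5000 bases of each other were both higher. GATA6-AS1, on the strand opposite to GATA6 and with a start 289 bases inside it, was at 1.31 TPM in hESCs against 21.7 TPM in DE (log2 ratio 3.30). TTC6, with a start 430 bases from that of FOXA1, was at 0.236 TPM in hESCs against 18.2 TPM in DE (log2 ratio 3.96), with FOXA1 at 28.5 TPM in DE. S100A14 and S100A16 on chromosome 1 were at 0.642 TPM in hESCs against 28.6 TPM in DE (log2 ratio 4.17) and 10.1 TPM in hESCs against 107 TPM in DE (log2 ratio 3.28). Whether the strand of the reads was used in counting is not stated, so the antisense value may hold reads of its partner.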
